A study of Homo sapiens with 9 samples.

Results

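The clustered protocadherins of human chromosome 5 were examined in HEK293 cells in which SmcHD1 had been knocked down. Members were the genes named PCDHA, PCDHB or PCDHG followed by a number or letter, and every non-control probe whose RefSeq accession belongs to them was used. This gave 50 of the 19483 named genes on the array, measured by 58 of its 42405 probes. The gene table lists 59 genes and pseudogenes in the alpha, beta and gamma clusters. The alpha cluster had 16 probes for 15 genes, the beta cluster 19 probes for 18 genes and the gamma cluster 23 probes for 17 genes. No probe was assigned to PCDHA14, PCDHB3, PCDHGA1, PCDHGA4, PCDHGA6, PCDHGB5, PCDHGA10, PCDHGA11 or PCDHGB9P.

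The arrays compared transcript levels between cells with shRNAs against SmcHD1 and cells with a control shRNA. HEK293, a line from human embryonic kidney that carries many neuronal transcripts, was infected with a retrovirus expressing shRNA 3 against SmcHD1 (KD3), shRNA 4 against SmcHD1 (KD4) or the control shRNA NC5 (CTL). All 3 groups carried the same GFP-marked vector backbone, were selected with puromycin as stable infected populations and received no further treatment. Each group was hybridised on 3 one-colour Agilent arrays, and the sources used here do not state whether the 3 arrays of a group came from separate infections, so the p-values measure the spread between these samples only.

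Clustered protocadherins are cell adhesion proteins of the cadherin superfamily, best known in neurons, where the mixture of isoforms that a cell makes gives it a surface identity. Each alpha and gamma variable exon has its own promoter and is spliced to constant exons shared by the cluster, whereas each beta gene is a single exon with no constant part. Choice among the promoters involves DNA methylation, the DNA-binding protein CTCF and the cohesin complex, and SmcHD1 is a chromatin protein with a hinge domain like that of the SMC subunits of cohesin.

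The promoters of the beta genes carry a shared sequence element, shown here for the genes on which the measurements turned. RefSeq promoter sequences, from 250 bases before to 50 bases after each annotated start, were held for 14 beta genes, 13 alpha genes and 20 gamma genes in the assembly GRCh38.p14. PCDHB2, PCDHB8, PCDHB16 and PCDHB14 were higher in both knock-downs, PCDHB9 and PCDHB13 were tested without a call in either knock-down, and PCDHB10 and PCDHB15 were too dim to be tested. Capitals mark the motif GGTGGCGCT, with 35 bases on each side.
PCDHB2, chr5:141094520-141094598, plus strand: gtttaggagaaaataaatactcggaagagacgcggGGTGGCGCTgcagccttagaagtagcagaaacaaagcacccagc
PCDHB8, chr5:141177753-141177831, plus strand: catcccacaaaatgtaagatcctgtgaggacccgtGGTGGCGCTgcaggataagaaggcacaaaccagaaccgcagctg
PCDHB16, chr5:141182286-141182364, plus strand: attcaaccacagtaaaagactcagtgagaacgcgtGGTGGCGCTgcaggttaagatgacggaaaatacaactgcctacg
PCDHB14, chr5:141223239-141223317, plus strand: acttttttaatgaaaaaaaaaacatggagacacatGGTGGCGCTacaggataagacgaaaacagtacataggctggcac
PCDHB9, chr5:141187050-141187128, plus strand: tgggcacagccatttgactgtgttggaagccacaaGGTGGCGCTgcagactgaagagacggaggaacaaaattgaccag
PCDHB13, chr5:141213841-141213919, plus strand: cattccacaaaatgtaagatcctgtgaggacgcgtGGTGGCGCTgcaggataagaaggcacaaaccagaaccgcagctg
PCDHB10, chr5:141192275-141192353, plus strand: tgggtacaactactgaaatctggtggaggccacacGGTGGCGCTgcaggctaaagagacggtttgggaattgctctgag
PCDHB15, chr5:141245290-141245368, plus strand: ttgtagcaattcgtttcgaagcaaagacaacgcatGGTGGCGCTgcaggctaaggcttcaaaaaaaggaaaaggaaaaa

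The motif GGTGGCGCT, searched on both strands, stood in 13 of 14 beta promoters and was missing from that of PCDHB1. The letters were chosen from the clusters themselves, so the count in the beta promoters is a description. It was in 0 of 13 alpha and 0 of 25 gamma promoters, and in 0.501% of all 35116 promoters of the same length. Its last 4 letters, CGCT, were in 12 of 13 alpha, 14 of 14 beta and 25 of 25 gamma promoters, but also in 70.0% of all promoters. In the beta promoters the motif began between 84 and 2 bases before the annotated start. The windows of PCDHB8 and PCDHB13 were identical at 77 of 79 bases, whereas a pair of the 13 windows shared a median of 38.0. The motif was present in the promoters of beta genes that were higher in both knock-downs and in those that were not, and no promoter sequence was held for PCDHB11.

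**Figure D1:**
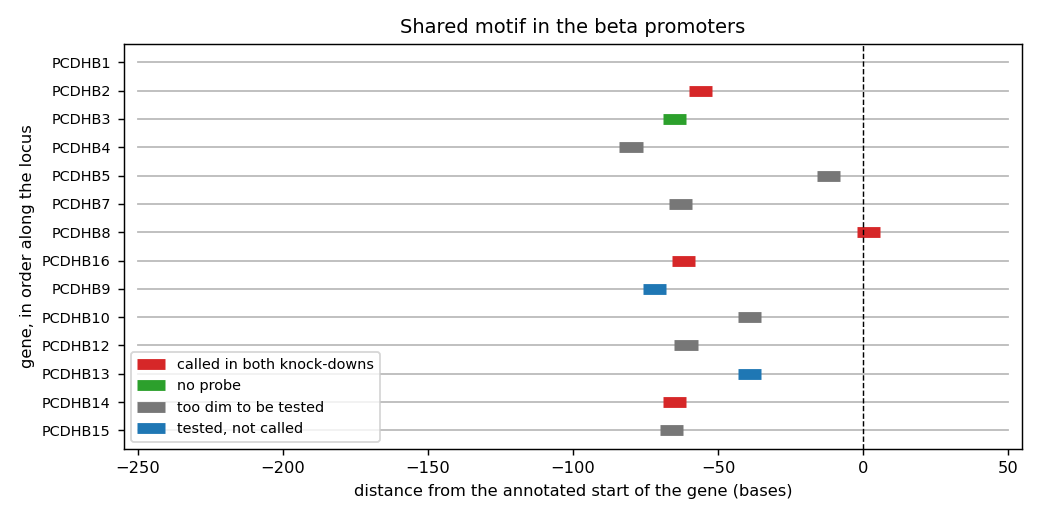
Place of the motif GGTGGCGCT in 14 promoters of the beta cluster. The x axis is the distance from the annotated start in bases, each grey line is a promoter, and each bar is the motif, coloured by the result for the gene. The motif begins within 100 bases before the start in 13 promoters and is missing from that of PCDHB1.

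SMCHD1, the targeted gene, was lower in both knock-downs. Its brightest probe read 11.20, 11.37 and 11.22 on the CTL arrays in replicate order, 10.40, 10.16 and 10.32 in KD3, and 9.63, 9.80 and 9.77 in KD4, all as normalized log2 signal. The groups did not overlap on this probe. The log2 difference from CTL was -0.97 in KD3 (limma adjusted p = 0.00021) and -1.53 in KD4 (limma adjusted p = 1.8e-05). The other two SMCHD1 probes gave -1.03 and -0.97 in KD3, and -1.54 and -1.51 in KD4. The difference between KD4 and KD3 was -0.56 on the brightest probe (limma adjusted p = 0.019), and -0.51 (limma adjusted p = 0.014) and -0.54 (limma adjusted p = 0.089) on the others, all below 1.8-fold.

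On each array the scanner software judged 74.6% to 79.2% of all probes to be well above background, and replicate arrays correlated at 0.9946 or more. The dimmest such probe lay between 3.09 and 3.73 on the log2 scale, depending on the array. All 8 genes of a HEK293 marker list were well above background on all 9 arrays, and 2 of them, PAX2 and NEFM, were lower in both knock-downs. The summed signal of that list was 144369 to 153578 in CTL, 128555 to 145519 in KD3 and 146354 to 151564 in KD4.

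Most clustered protocadherins lay near or below the detection limit in these cells, that is, the software did not judge their probes well above background. Of the 58 probes, 17 passed that limit on all 9 arrays, 20 on none and 21 on some. The number of members well above background was 24, 24 and 21 on the CTL arrays, 25, 27 and 28 in KD3, and 26, 34 and 27 in KD4. In the beta cluster the counts of the knock-downs did not overlap those of CTL. They were 6, 7 and 6 probes in CTL, 10, 10 and 9 in KD3, and 9, 12 and 11 in KD4. Over all probes of the array the share well above background overlapped between groups. It was 75.8% to 78.8% in CTL, 75.4% to 77.7% in KD3 and 74.6% to 79.2% in KD4. The gamma cluster had 14, 13 and 12 probes in CTL, 11, 13 and 13 in KD3, and 12, 16 and 12 in KD4, so that its ranges overlapped. In the alpha cluster the counts were 4, 4 and 3 in CTL, 4, 4 and 6 in KD3, and 5, 6 and 4 in KD4. They leaned higher in the knock-downs but overlapped CTL.

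**Figure D2:**
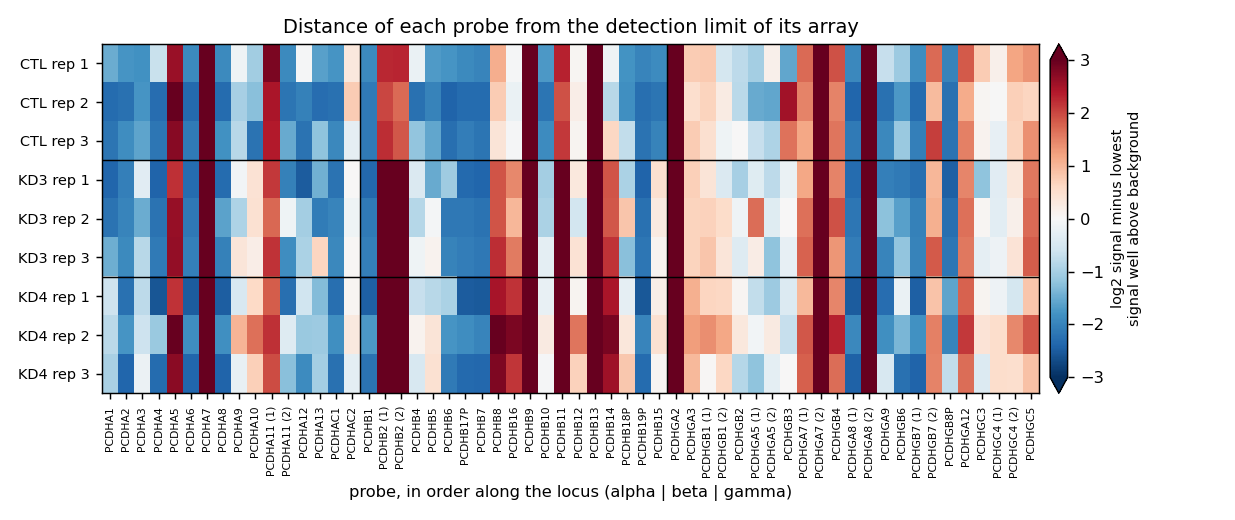
Distance of the 58 probes (x axis, in order along the locus, alpha, beta and gamma parted by vertical lines) from the detection limit of each of the 9 arrays (y axis). Colour gives the log2 signal minus the lowest signal well above background on that array, clipped at 3 in either direction. Probes of PCDHB2, PCDHB8 and PCDHB11 are red in CTL and darker red in KD3 and KD4, PCDHB16 and PCDHB14 go from values near or below the limit in CTL to red, while most alpha probes stay blue on every array.

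A probe was tested where all arrays of at least 1 group held it well above background, which left 24 of the 58 members, 4 in the alpha, 8 in the beta and 12 in the gamma cluster. A call needed a limma adjusted p under 0.05 over all 32090 probes tested and a fold of at least 1.8. In both knock-downs 7 member probes of 6 genes were called higher and 0 lower, against 0.748% of all tested probes called higher in both and 1.62% called lower. These were 6 of the 8 tested beta probes, for PCDHB2, PCDHB8, PCDHB16, PCDHB11 and PCDHB14, and 1 of the 4 tested alpha probes, for PCDHA10. None of the 12 tested gamma probes was called in both. Against CTL, 7 members were called higher and 0 lower in KD3, where 1.12% and 2.17% of all tested probes were. In KD4, 8 members were called higher and 0 lower, where 1.4% and 3.14% were. The comparisons share the CTL arrays, so agreement between them is not independent.

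The filter itself favours such calls, because PCDHA10, PCDHB8, PCDHB16 and PCDHB14 entered the test only through the knock-down arrays, and the PCDHGB1 probe called in KD4 only through KD4. Among probes well above background on all 9 arrays, 3 of 5 beta probes, 0 of 3 alpha probes and 0 of 9 gamma probes were called in both knock-downs. The share called over all probes of that stricter set was not taken, so these counts are a description only. The RNA came from whole cultures, so a change in the number of cells that transcribe a gene cannot be told apart from a change in the RNA per cell.

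PCDHB2, the first gene of the cluster with a bright probe, was measured by a pair of probes. The probe A_23_P213375 read 5.36, 5.51 and 5.57 in CTL, 7.09, 7.10 and 7.06 in KD3, and 8.29, 8.12 and 8.12 in KD4. The probe A_24_P251962 read 5.39, 5.19 and 5.21 in CTL, 6.84, 6.86 and 6.89 in KD3, and 7.84, 7.97 and 7.93 in KD4. On both probes every KD4 array was above every KD3 array, and every KD3 array above every CTL array. The log2 differences from CTL were 1.60 ± 0.0807 (standard error, limma adjusted p = 1.1e-05) in KD3 and 2.69 (limma adjusted p = 5.3e-07) in KD4 on the former probe. On the latter they were 1.61 ± 0.0757 (limma adjusted p = 8.9e-06) and 2.65 (limma adjusted p = 5e-07).

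PCDHB8 is the next beta gene along the locus that was called in both knock-downs. Its signal was 4.20, 4.27 and 3.74 in CTL, with the third array not well above background, 5.47, 5.25 and 5.52 in KD3, and 6.20, 6.07 and 6.33 in KD4. The 3 groups did not overlap. The log2 difference was 1.34 ± 0.148 in KD3 (limma adjusted p = 0.00052) and 2.13 in KD4 (limma adjusted p = 4e-05).

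PCDHB16, its neighbour, stayed in the background of all CTL arrays, where it read 3.07, 3.29 and 3.31. It read 5.04, 4.36 and 4.87 in KD3 and 5.89, 5.91 and 5.69 in KD4, all well above background and without overlap between groups. The CTL level is therefore a bound, and the probe was at least 2.71-fold higher in KD3 and at least 5.71-fold higher in KD4. The fitted log2 differences, taken against background CTL signals, were 1.53 in KD3 (limma adjusted p = 0.00045) and 2.61 in KD4 (limma adjusted p = 2.6e-05). These p-values do not test the bounds, and the probe entered the test only through the knock-down arrays.

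PCDHB11 was detected throughout. It read 5.40, 5.40 and 5.47 in CTL, 6.80, 6.81 and 7.00 in KD3, and 7.50, 7.69 and 7.56 in KD4. The 3 groups were separate, and the spread within CTL was 0.0403 (SD, n = 3). The log2 difference was 1.44 ± 0.0818 in KD3 (limma adjusted p = 1.8e-05) and 2.16 in KD4 (limma adjusted p = 1.9e-06).

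PCDHB14 was also higher in both knock-downs. It read 2.96, 2.67 and 3.96 in CTL, where only the third array was well above background, 5.47, 5.22 and 5.46 in KD3, and 6.19, 5.94 and 6.09 in KD4. The groups did not overlap, although the CTL arrays spread more widely than those of the other genes called in both knock-downs (SD 0.679, n = 3). The fitted log2 difference, taken against CTL signals that were in the background on 2 of 3 arrays, was 2.19 ± 0.283 in KD3 (limma adjusted p = 0.0012) and 2.88 in KD4 (limma adjusted p = 0.00024).

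PCDHB9 and PCDHB13 had bright signals in CTL, and neither was called. PCDHB9 read 8.05, 8.26 and 7.99 in CTL, 8.76, 8.30 and 8.63 in KD3, and 8.46, 8.87 and 8.96 in KD4, with every knock-down array above every CTL array, the nearest of them at 8.30 against 8.26. Its log2 difference was 0.46 ± 0.162 in KD3 (limma adjusted p = 0.083) and 0.66 in KD4 (limma adjusted p = 0.017). PCDHB13 read 8.32, 8.51 and 8.33 in CTL, 8.46, 8.46 and 8.73 in KD3, and 8.98, 8.96 and 9.07 in KD4. KD3 overlapped CTL on this probe and KD4 did not. The log2 difference was 0.17 ± 0.0951 in KD3 (limma adjusted p = 0.27) and 0.62 in KD4 (limma adjusted p = 0.0019). The promoter window of PCDHB13 is almost that of PCDHB8, shown above, while the fitted differences of their probes were 0.62 and 2.13 in KD4.

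**Figure D3:**
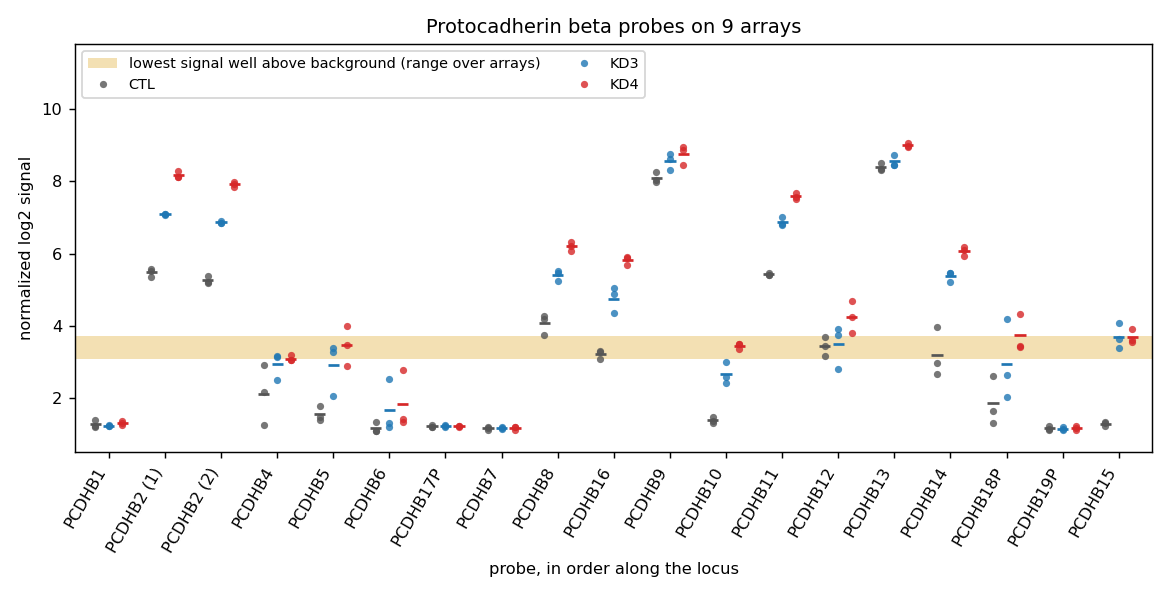
Normalized log2 signal (y axis) of the 19 beta probes on 9 arrays, in order along the locus (x axis). Each point is an array, each bar the mean of the 3 arrays of a group, and the band spans the detection limits of the arrays (3.09 to 3.73). PCDHB2, PCDHB8, PCDHB16, PCDHB11 and PCDHB14 step up from CTL to KD3 to KD4, and PCDHB9 and PCDHB13 have CTL means of 8.10 and 8.39.

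The remaining 11 beta probes were too dim to be tested. PCDHB15, which lies last in the cluster and was printed in 10 spots per array, read 1.22, 1.30 and 1.35 in CTL, 4.08, 3.64 and 3.39 in KD3, and 3.90, 3.54 and 3.60 in KD4. It passed the detection limit on 2 of 3 arrays in both knock-downs but never in CTL, which gives a bound of at least 1.31-fold in KD3 and at least 1.28-fold in KD4. PCDHB10 read 1.37, 1.31 and 1.47 in CTL, 2.58, 2.42 and 3.01 in KD3, and 3.50, 3.36 and 3.50 in KD4, and was well above background on no array. Both probes were separate between the knock-downs and CTL, but PCDHB10 has no fold, because no group held it well above background. PCDHB5 read 1.39, 1.49 and 1.79 in CTL, 2.07, 3.29 and 3.40 in KD3, and 2.89, 3.48 and 4.00 in KD4. It was well above background on the last of these arrays alone.

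PCDHB12 was well above background on 5 arrays, 1 of CTL and 2 of each knock-down, and its groups overlapped. The pseudogene PCDHB18P was so on 3 arrays, 1 of KD3 and 2 of KD4. PCDHB4 was so on 1 array, of KD4. PCDHB1, PCDHB6, PCDHB7 and the pseudogenes PCDHB17P and PCDHB19P were not well above background on any array. Over all 19 beta probes, 10 had every knock-down array above every CTL array, and over all 58 members 12 did, against 10.2% of all probes with a value on every array. Of the 34 members too dim to be tested 4 did, PCDHA3, PCDHB5, PCDHB10 and PCDHB15, against 1.43% of all such probes. Fitted with no filter on dim probes, 9 members were called higher in KD3, where 0.899% of probes were, and 13 in KD4, where 1.27% were. PCDHB10 and PCDHB15 were the probes gained in KD3, and these with PCDHB5, PCDHA1 and PCDHA3 in KD4, although their CTL signals are only background.

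Order along the locus set no simple boundary. PCDHB2 was higher, while PCDHB4, PCDHB5, PCDHB6, PCDHB17P and PCDHB7, which follow it, stayed near or below the detection limit in all groups, although PCDHB5 had every knock-down array above every CTL array. From PCDHB8 to PCDHB14, a run of 8 genes with 1 probe each, 6 probes were tested, of which 4 were higher under both shRNAs, with PCDHB9 and PCDHB13 lying among them. The group mean was higher in KD4 than in CTL for all 8, including the dim PCDHB10 and PCDHB12. The run begins and ends at a called probe, and the share of all probes with a higher mean in KD4 was not taken. That count is therefore a description only. Over the 8 tested beta probes the median log2 difference was 1.48 in KD3 and 2.38 in KD4, where the median over all tested probes was 0.01 and 0.04. These medians include PCDHB8, PCDHB16 and PCDHB14, which passed the filter through the knock-down arrays alone, and are a description only.

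**Figure D4:**
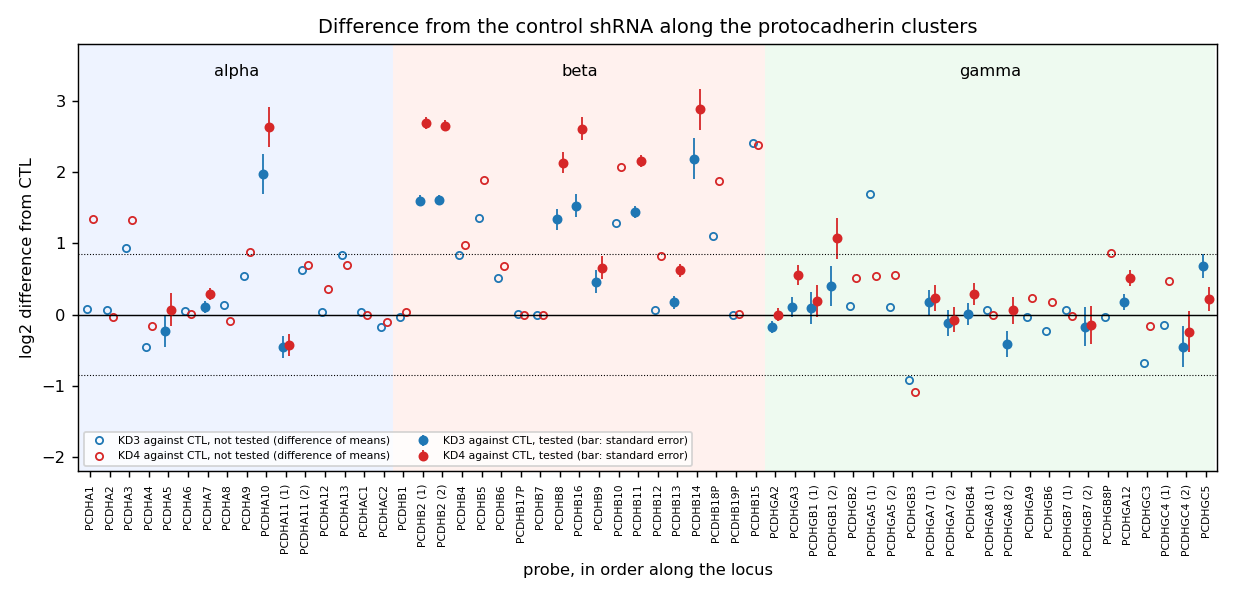
Log2 difference from CTL (y axis) of the 58 probes in order along the locus (x axis), for KD3 and KD4. Filled points with standard errors are the 24 tested probes, open points are differences of means for probes too dim to be tested, and dotted lines mark 1.8-fold. Called probes stand in the beta block and at PCDHA10, and PCDHGB1 (2) passes the line in KD4.

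In the alpha cluster, PCDHA10 was the only member called. It read 2.05, 2.24 and 1.14 in CTL, all below detection, 4.03, 3.82 and 3.49 in KD3, and 4.33, 4.75 and 4.25 in KD4, all well above background. The knock-down arrays were separate from CTL, and KD4 from KD3. The bound was at least 1.38-fold in KD3 and at least 2.18-fold in KD4. The fitted log2 differences, taken against background CTL signals, were 1.97 in KD3 (limma adjusted p = 0.0019) and 2.63 in KD4 (limma adjusted p = 0.00035). These p-values do not test the bounds, and the probe entered the test only through the knock-down arrays.

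The other tested alpha probes were bright and were not called. PCDHA5 had log2 differences of -0.23 in KD3 and 0.07 in KD4, PCDHA7 of 0.11 and 0.29, and PCDHA11 of -0.46 and -0.43, with standard errors of 0.0858 to 0.229. PCDHA7 had a limma adjusted p of 0.035 in KD4 at a fold below 1.8. A second PCDHA11 probe, for another accession, was well above background on no array. PCDHAC2, a C-type isoform, was well above background on 4 arrays, 2 of CTL and 2 of KD4, PCDHA9 on 2 and PCDHA13 on 1. PCDHA1, PCDHA2, PCDHA3, PCDHA4, PCDHA6, PCDHA8, PCDHA12 and PCDHAC1 were so on no array. The median over the 4 tested alpha probes was -0.06 in KD3 and 0.18 in KD4.

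The gamma cluster had 9 probes well above background on all 9 arrays, and none of these was called. Fitted differences of its 12 tested probes ran from -0.45 to 0.68 in KD3 and from -0.24 to 1.07 in KD4, with medians of 0.05 and 0.20. At an unadjusted p under 0.05, limma gave 1 probe in KD3 and 3 in KD4, and so did the methods' t-test. The share of all tested probes at that unadjusted threshold was not taken. At a limma adjusted p under 0.05, which is stricter, 20.2% of all tested probes passed in KD3 and 28.5% in KD4. PCDHGB1 was the only gamma gene called, and in KD4 only. Its probe A_23_P310972 read 2.58, 3.74 and 3.23 in CTL, 3.16, 3.92 and 3.67 in KD3, and 4.35, 4.25 and 4.16 in KD4, so that KD4 was separate from CTL and KD3 was not. Only the second CTL array was well above background. The fitted log2 difference was 0.40 ± 0.283 in KD3 (limma adjusted p = 0.37) and 1.07 in KD4 (limma adjusted p = 0.022), and with normexp background correction the KD4 value was 0.10 (limma adjusted p = 0.31). The other PCDHGB1 probe gave 0.09 and 0.19. The KD4 call was lost when any of KD4 replicate 1, 2 or 3 or CTL replicate 1 or 3 was left out, at log2 differences of 0.77 to 1.12.

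The remaining gamma members were not called in either knock-down. PCDHGA3 and PCDHGA12 had log2 differences of 0.56 (limma adjusted p = 0.017) and 0.51 (limma adjusted p = 0.012) in KD4, and of 0.11 and 0.18 in KD3. PCDHGC5, a C-type isoform at the end of the locus, had 0.68 in KD3 (limma adjusted p = 0.022) and 0.22 in KD4. It read 4.44, 4.15 and 4.72 in CTL, 5.17, 5.06 and 5.11 in KD3, and 4.57, 4.95 and 4.43 in KD4, so that KD3 lay above both other groups. PCDHGA2 gave -0.17 and 0.00 and PCDHGB4 0.01 and 0.29 in KD3 and KD4. PCDHGA8 gave -0.41 and 0.06, PCDHGB7 gave -0.17 and -0.15, and PCDHGC4 gave -0.45 and -0.24. The pair of PCDHGA7 probes gave -0.12 and 0.17 in KD3, and -0.07 and 0.23 in KD4. PCDHGA2, PCDHGB4, PCDHGA8, PCDHGB7, PCDHGC4 and PCDHGA7 had limma adjusted p-values over the threshold in both knock-downs, with standard errors of 0.0864 to 0.286.

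Of the gamma probes too dim to be tested, PCDHGB3 differed most within CTL. It read 1.53, 6.03 and 4.99 in CTL, of which the last 2 were well above background, 3.38, 3.37 and 3.05 in KD3, and 3.32, 2.40 and 3.56 in KD4. PCDHGC3 and the other PCDHGC4 probe were well above background on 3 arrays each, both PCDHGA5 probes on 2 each and PCDHGB2 on 1. PCDHGA9, PCDHGB6, PCDHGB8P and the other probes of PCDHGA8 and PCDHGB7 were so on no array. No gamma probe had every knock-down array above every CTL array.

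**Figure D5:**
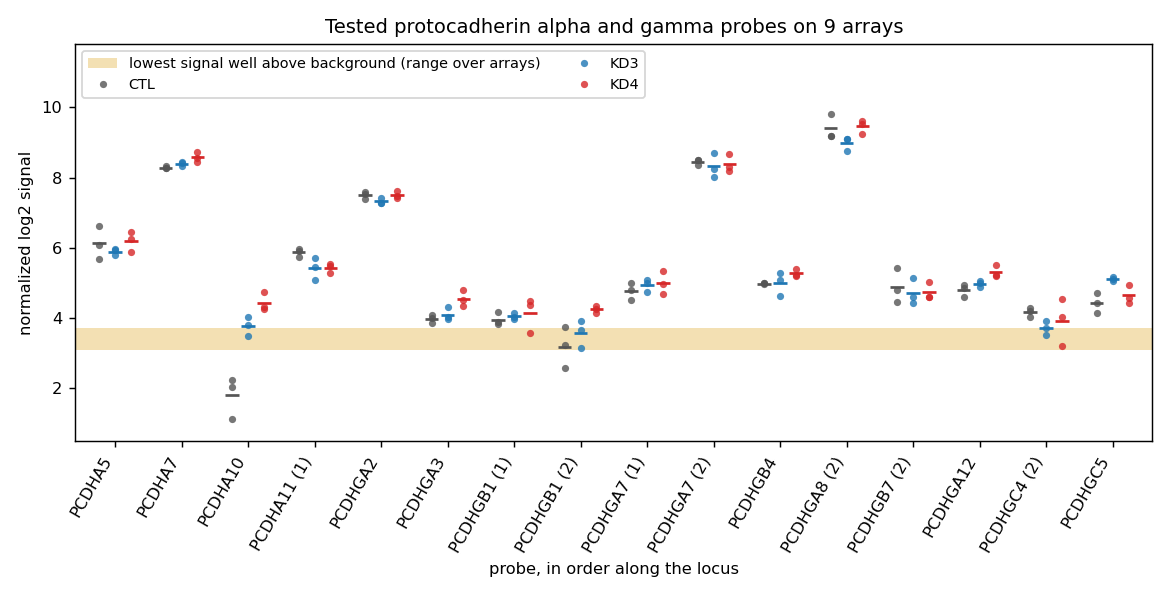
Normalized log2 signal (y axis) of the 16 tested alpha and gamma probes on 9 arrays, in order along the locus (x axis). Each point is an array, each bar the mean of the 3 arrays of a group, and the band spans the detection limits of the arrays. PCDHA10 lies below the band in CTL and within or above it in KD3 and KD4, and the groups of most other probes overlap.

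KD4 was then compared with KD3 directly. The CTL arrays enter this comparison through the shared estimate of the spread, not through the difference. Of the 24 tested members, 3 probes were called higher in KD4, where 0.199% of all tested probes were, and 0 lower, where 0.243% were. They were both PCDHB2 probes and PCDHB16. The log2 difference was 1.09 on A_23_P213375 (limma adjusted p = 0.00063), 1.05 on A_24_P251962 (limma adjusted p = 0.00056) and 1.08 for PCDHB16 (limma adjusted p = 0.016). The call of PCDHB16 was lost without KD4 replicate 1 (limma adjusted p = 0.06) or KD4 replicate 2 (limma adjusted p = 0.067), at a log2 difference of 1.04 in each case.

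The other tested beta probes had fitted differences between KD4 and KD3 in the same direction without a call. PCDHB8 gave 0.79 (limma adjusted p = 0.033), PCDHB11 gave 0.72 (limma adjusted p = 0.0059) and PCDHB13 gave 0.46 (limma adjusted p = 0.046), all below 1.8-fold. PCDHB14 gave 0.69 (limma adjusted p = 0.23) and PCDHB9 0.20 (limma adjusted p = 0.53). PCDHA10 gave 0.66 (limma adjusted p = 0.24), and the gamma probes ran from -0.46 to 0.67.

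Arrays lay on 2 slides, each holding all 3 groups. Slide 1 held only replicate 2 of KD3, and slide 2 only replicate 1 of KD4 and of CTL, so differences within a slide rest on few arrays. Over the 7 probes called in both knock-downs, the log2 difference from CTL was 1.06 to 2.13 on slide 1 and 1.29 to 2.51 on slide 2 in KD3, and 2.19 to 2.81 and 2.00 to 3.23 in KD4. Over all arrays they spanned 1.34 to 2.19 and 2.13 to 2.88. With the slide as a block the range was 1.29 to 2.18 and 2.13 to 2.88. These ranges include PCDHA10, PCDHB16 and PCDHB14, whose CTL signals lay in the background on all or most arrays, so that their fitted differences are not measured folds.

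The choice of background correction moved the size of these differences. With normexp background correction and an offset of 50, which draws dim values together, 2 probes remained called in both knock-downs, those of PCDHB2. PCDHB8 then gave 0.38 in KD3 and 0.76 in KD4, PCDHB16 0.33 and 0.76, and PCDHA10 0.27 and 0.47, each with a limma adjusted p under the threshold and a fold under 1.8. PCDHB11 gave 0.81 and PCDHB14 0.58 in KD3, while both stayed called in KD4. The study's unequal-variance test, after Benjamini-Hochberg adjustment, called PCDHB11 alone in both knock-downs, and without adjustment its count was 7. Probe sequences were not used here, so it is not known which alpha and gamma probes lie in constant exons that all isoforms share, and how far near-identical beta copies share signal was not tested.

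Genes that flank the clusters were examined in the same way. SLC25A2, a mitochondrial ornithine carrier, and TAF7, a subunit of the general transcription factor TFIID, lie between the beta and gamma clusters. SLC25A2 had log2 differences of -0.01 in KD3 and 0.48 in KD4 (limma adjusted p = 0.0041), and TAF7 of -0.07 and -0.06, neither of them called. Of the 12 nearest genes before the clusters that had probes, 12 were tested and 0 were called in either knock-down, with medians of 0.11 and 0.13. Of the 12 nearest after them, 11 were tested, 0 were higher and 2 were lower in both knock-downs, where 1.62% of all tested probes were lower in both. These were ARAP3, at -1.01 and -0.85, and PCDH1.

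PCDH1 belongs to the non-clustered protocadherins, single genes with promoters of their own. Of 14 such genes 11 were tested, and 0 were called higher. PCDH1 was lower at -1.51 in KD3 (limma adjusted p = 1.4e-05) and -1.27 in KD4 (limma adjusted p = 2.8e-05), and PCDH8 at -1.13 (limma adjusted p = 0.0064) and -0.92 (limma adjusted p = 0.012). The medians over the 11 genes were 0.16 in KD3 and 0.25 in KD4.

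Among 20 regulators of the clusters, all of them tested, SMCHD1 was the only gene called. CTCF, which binds the promoters of the clusters, had log2 differences of 0.17 in KD3 (limma adjusted p = 0.092) and 0.14 in KD4 (limma adjusted p = 0.13). REST, a repressor of neuronal genes, had 0.55 (limma adjusted p = 0.0017) and 0.42 (limma adjusted p = 0.0042), and LRIF1, a binding partner of SmcHD1, 0.15 (limma adjusted p = 0.33) and 0.77 (limma adjusted p = 0.00092), all at folds below 1.8. The medians of the list were -0.01 and -0.11. Of 16 genes for intracellular partners of clustered protocadherins 15 were tested, and of 7 genes for proteases that cut them 7 were tested. None was called in either knock-down at the fold threshold. At an adjusted p under 0.05 alone, limma gave 4 partners in KD3 and 5 in KD4, and 1 and 4 proteases, where 20.2% and 28.5% of all tested probes passed it. The medians were -0.14 and -0.09 for partners and -0.02 and 0.02 for proteases.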

How the data were processed

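Total RNA of 9 samples was labelled with Cy3 and hybridised to one-colour Agilent arrays. The authors deposited, per array, the intensity of each of 58717 spots from Agilent Feature Extraction 10.10.1.1, where the green processed signal is background-subtracted, with a small positive value where a spot did not exceed its background. A series table of log2 values that the authors normalized in GeneSpring served as an alternative. The members and gene lists were chosen with earlier results of these data known.

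Control spots and the 260 to 634 spots per array marked non-uniform or as population outliers were left out. Quantile normalization of the log2 signals was done in R 4.3.3 (limma 3.58.1), and spots of a probe were averaged. Of 42405 probes, 21 lacked a value on some array. A probe counted as well above background on an array where most of its used spots were, and was tested where this held on all arrays of at least 1 group (32090 probes). Groups were compared over all 9 arrays with lmFit and eBayes, fitting group means, and Benjamini-Hochberg adjustment. The script was tested on simulated data. A bound ("at least") set the mean of the brighter group against, per array of the dimmer group, the higher of the lowest signal well above background and the probe's own signal. No level was compared between probes.

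Each tested member is named with its log2 differences; per-array values are given for probes called in both knock-downs or between KD4 and KD3 and for beta probes well above background on all 9 arrays. PCDHB5, PCDHB10, PCDHB15, PCDHGB1, PCDHGB3 and PCDHGC5 were shown after their values were seen, as were the genes singled out from the lists. Accessions named 25422 probes through a gene table of GRCh38.p14. The array design uses GRCh37, so only promoter sequences carry coordinates. Alternatives were 75th percentile scaling, normexp, the deposited log2 table, a stricter filter on dim probes or none, the methods' unequal-variance test with and without adjustment, fits of 2 groups alone, slide or replicate number as a block, no fold threshold, outlier spots kept, and each array left out. Arrays carry no read depth, and their number limits the precision. Results from SH-SY5Y cells, immunoblots and methylation assays were not analysed here.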

Additional observations from a re-analysis of the deposited data

Results flagged for a closer look

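Of the tested members, 3 probes differed between the effects of the shRNAs, by the direct test of KD4 against KD3 with limma. PCDHB2 was higher in KD4 by 1.09 on the log2 scale on the probe A_23_P213375 and by 1.05 on A_24_P251962, and PCDHB16 by 1.08. All 3 KD4 arrays were above all 3 KD3 arrays on each of these probes. With normexp background correction the values were 0.77 on A_24_P251962 and 0.43 for PCDHB16, both below 1.8-fold, and the methods' t-test after Benjamini-Hochberg adjustment called none of the 3 (adjusted p of 0.15, 0.11 and 0.28, in the order above). The 3 SMCHD1 probes had differences of -0.51 to -0.56 between KD4 and KD3, with a limma adjusted p under 0.05 on 2 of them, and the part of SMCHD1 in the difference was not tested.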

How the results depend on the processing

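The count of members called was 7 in both knock-downs, 7 in KD3, 8 in KD4 and 3 in KD4 against KD3. Scaling to the 75th percentile, the authors' log2 values, fits of 2 groups alone, the slide as a block and outlier spots kept left each count within 1.5 times of these. With normexp the counts were 2, 2, 4 and 1. That setting also started from median spot and background signals in place of the processed signal, and the cause of the lower counts was not tested. With no filter KD4 had 13, and with only probes well above background on all 9 arrays the counts were 3 in both knock-downs, in KD3 and in KD4, since fewer probes were tested. The methods' t-test gave 1, 1, 5 and 0 after Benjamini-Hochberg adjustment, and 7, 7, 7 and 3 at an unadjusted p under 0.05. With no fold threshold KD4 had 13, at a setting that 28.5% of all tested probes passed in KD4. KD4 against KD3 then had 6, and the share over all probes was not taken for it. Leaving out each array in turn gave 7 to 7 in both, 7 to 7 in KD3, 7 to 8 in KD4 and 2 to 3 in KD4 against KD3. No fitted difference of a called probe changed sign under these alternatives.

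With the replicate number as a block the counts were 7, 7, 8 and 2, the lost call being PCDHB16 in KD4 against KD3 (limma adjusted p = 0.055). The numbers were not taken to pair the arrays, because correlations of same-numbered arrays' deviations from their group means ran from -0.08 to 0.14 and not every pair was over 0.1. With 75th percentile scaling PCDHB8 was also called in KD4 against KD3, at 0.93. Depth is not defined for arrays, and signals under 3.09 to 3.73 on the log2 scale give bounds only.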
